A study of Homo sapiens with 12 samples.

Results

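The interferon response and antigen presentation genes described here were 49 genes, taken by name, that sense viral nucleic acid, carry the interferon signal, are induced by it, or prepare peptides for MHC class I. Each gene was read from the array row that carried its symbol alone. Of the 49 genes, 43 had such a row among the 13530 genes of the table, and 36 of these were bright enough to be tested among 10807 genes. All 12 arrays came from U-87MG, a long-established line from a human glioblastoma, and the cells of every group carried the control shRNA shCtrl. Cells stood in six-well plates for 24 h and were then treated for 24 h with 1 of 3 additions. These were the solvent DMSO, which made up at most 0.2% of the medium, FICZ at 100 nM, or kynurenic acid (KynA) at 50 µM, with 4 samples in each group. The 4 samples of a group are labelled as biological replicates, but no label says whether separate cultures stand behind them, and p-values therefore measure no more than the scatter of these samples, which may be technical.

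Interferons bind surface receptors whose JAK kinases phosphorylate STAT proteins. A complex that holds STAT2 and IRF9 then binds the interferon-stimulated response element (ISRE) in front of antiviral genes, while interferon gamma acts mainly through the gamma-activated site (GAS). Interferon also induces immunoproteasome subunits and the TAP transporter, which cut and carry the peptides that MHC class I shows to cytotoxic T cells. FICZ, a tryptophan photoproduct, and KynA, a tryptophan metabolite, are ligands of the aryl hydrocarbon receptor (AHR), which acts through a different element, the dioxin response element (DRE).

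An element shared by many of these genes can be read in their promoters. RefSeq promoters on build GRCh38.p14, from 250 bases before to 50 bases after a gene start, were found for 38 of the 49 genes, with DDX58 matched under its newer symbol RIGI. The ISRE core GAAANNGAAA, searched on both strands, lay in the promoters of 27 of these 38 genes (71.1%) and in those of 4.38% of all 27305 genes with an entry. Counted per promoter of the same 300-base length, the shares were 31 of 51 (60.8%) and 3.57% of 35116. The stretches below are shown because they carry this core in genes whose values follow, in each gene's own 5′ to 3′ direction. Capitals mark the core, which reads TTTCNNTTTC where it lies on the opposite strand, and in ISG15 and TAP1 a pair of cores overlap in 1 capital run. MX1, PARP9, IFI27 and TAP1 had several starts, and the stretch shown lies before 1 of them. The other starts of MX1, PARP9 and TAP1 had no core before them.
GBP1, chr1:89065306-89065355 (minus strand): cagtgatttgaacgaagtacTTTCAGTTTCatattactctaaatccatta
MX1, chr21:41431834-41431883 (plus strand): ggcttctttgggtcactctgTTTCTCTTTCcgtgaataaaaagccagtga
PARP9, chr3:122564312-122564361 (minus strand): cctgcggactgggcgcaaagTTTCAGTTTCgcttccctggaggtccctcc
IFI6, chr1:27672256-27672368 (minus strand): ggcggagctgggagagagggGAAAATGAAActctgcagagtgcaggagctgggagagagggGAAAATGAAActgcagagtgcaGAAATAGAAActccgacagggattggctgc
IFI44L, chr1:78620264-78620404 (plus strand): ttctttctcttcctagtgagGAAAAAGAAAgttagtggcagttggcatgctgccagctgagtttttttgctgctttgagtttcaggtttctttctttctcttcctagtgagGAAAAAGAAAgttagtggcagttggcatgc
ISG15, chr1:1013364-1013419 (plus strand): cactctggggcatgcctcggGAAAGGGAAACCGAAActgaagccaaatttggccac
IFI27, chr14:94110608-94110670 (plus strand): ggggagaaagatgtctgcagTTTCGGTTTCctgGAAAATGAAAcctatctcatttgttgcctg
TAP1, chr6:32853803-32853858 (minus strand): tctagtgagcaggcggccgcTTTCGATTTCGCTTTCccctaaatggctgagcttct
PARP9 and DTX3L, whose products act as a complex, start 38 bases apart and share 1 core, at chr3:122564332-122564341. The GAS core TTCNNNGAA, which may overlap an ISRE core, was in 11 of the 38 genes (28.9%) against 9.38% of all genes.

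By contrast, the DRE core GCGTG was in 12 of the 38 genes (31.6%), against 40.57% of all genes. TIPARP, an AHR target that encodes a mono-ADP-ribosyltransferase and is used below as a sign of AHR activation, holds 2 such cores in the stretch shown for comparison. Both lie on the opposite strand and read CACGC in capitals. The other starts of TIPARP had no such core.
TIPARP, chr3:156674362-156674472 (plus strand): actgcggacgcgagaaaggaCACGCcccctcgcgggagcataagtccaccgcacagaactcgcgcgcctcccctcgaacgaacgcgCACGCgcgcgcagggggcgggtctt
A match describes these letters only. It does not show that a factor was bound in these cells.

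The deposited values were log2 signals, and array medians lay between 8.30 and 8.33. Of the glioblastoma line markers, VIM, FN1, TNC, CHI3L1 and CD44 had means of 13.08, 12.82, 11.75, 10.85 and 10.23. GFAP and NES had means of 8.11 and 8.17, below the array medians, and SOX2 was not analysed here. The leukocyte gene PTPRC, with values from 7.74 to 8.47, and the microglial gene AIF1, from 7.85 to 8.79, also lay above the level required for testing, so passing that level does not show that a gene is expressed. The mean of 6 myeloid markers ran from 7.53 to 7.92 in DMSO, 7.54 to 8.12 in FICZ and 7.67 to 7.96 in KynA, and that of 2 lymphoid markers from 7.11 to 7.47, 6.56 to 7.47 and 6.94 to 7.31. Array FICZ 4 stood apart, with a first principal component score of 24.2, where the next array scored 13.64, and the lowest array weight (0.551). Its part in the results was measured by leaving it out.

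The question was whether interferon output follows the inflammatory cytokines that FICZ raises. IL1B, which encodes the cytokine interleukin-1 beta, measured 7.53, 8.24, 7.36 and 7.43 in the 4 DMSO arrays and 9.98, 10.44, 9.43 and 9.53 in the 4 FICZ arrays. CCL2, a chemokine that draws monocytes, measured 7.47, 6.68, 7.07 and 6.92 in DMSO and 8.12, 7.82, 8.02 and 7.89 in FICZ. Neither gene's groups overlapped. On the log2 scale IL1B rose by 2.20 ± 0.256 (SE over 4 arrays per group; 4.60-fold; limma adjusted p = 0.000949) and CCL2 by 0.93 ± 0.147 (1.90-fold; limma adjusted p = 0.0078). All DMSO values of CCL2 lay below the level required for testing, so it was tested only because its ligand arrays were brighter. The DMSO values of IL1B, except in DMSO 2, also lay below it, so IL1B too was tested only through its ligand arrays. The folds of both genes may be understated at that level. The AHR targets TIPARP (2.31-fold; limma adjusted p = 0.000659), CYP1B1 (2.10-fold; limma adjusted p = 0.00629) and AHRR (1.96-fold; limma adjusted p = 0.00565) rose as well. The receptor gene AHR itself differed by -0.096 ± 0.0758 (limma adjusted p = 0.586). Each of the 5 genes that rose was higher in all 4 FICZ arrays than in any DMSO array. IL1B and CCL2 were named because they rise in these same data, so their rise is no independent support. The 5 genes are set beside the interferon genes as a description only.

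The tested interferon response and antigen presentation genes did not follow them at a level this experiment could detect. This says little of interferon release, as 1 of 24 interferon ligands was tested. Several classical reporters of the response were dim or missing. Of the 36 tested genes, 0 passed in FICZ against DMSO by limma at an adjusted p under 0.05, where 0.851% of all tested genes passed. At an unadjusted p under 0.05 there were 4 of 36 (11.1%), all with lower values in FICZ, against 14.5% of all tested genes in either direction and 8.65% lower. Positive differences were measured for 14 of the 36 (38.9%) and for 41.4% of all tested genes. The median difference was -0.053 for the 36 genes and -0.031 for all tested genes, and the median size without sign was 0.114 and 0.107. The 95% intervals of the single genes, not adjusted for their number, ran from 0.601-fold for IRF7 to 1.64-fold for OAS1, so that no interval reached a 2-fold change in either direction. In bulk samples such as these, a response in few cells and a weak response in all cells cannot be told apart.

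**Figure D1:**
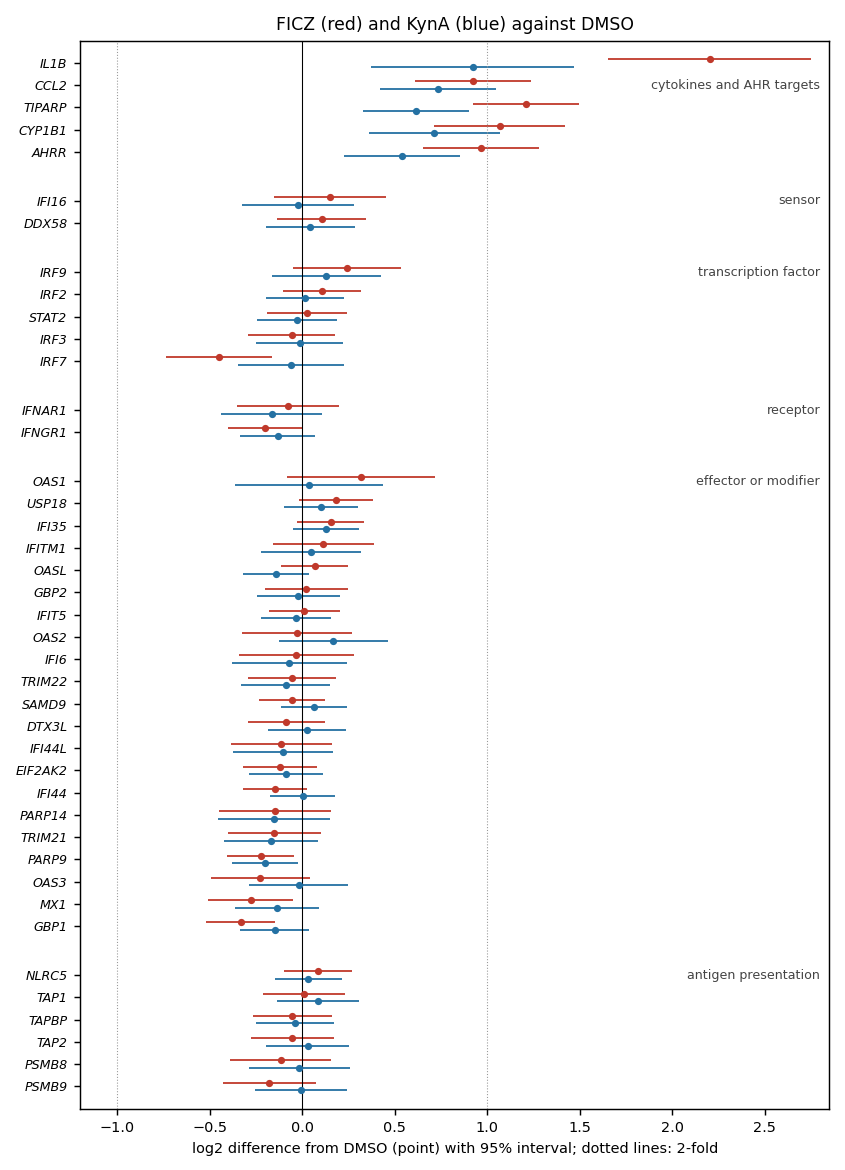
Log2 difference from DMSO (horizontal axis) for each tested gene by role, with FICZ in red and KynA in blue. Points are limma estimates from 4 arrays per group, bars are 95% intervals and dotted lines mark 2-fold. IL1B, CCL2 and the AHR targets lie to the right under FICZ, and the 36 interferon and antigen presentation genes lie between -0.45 and 0.32.

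Among the nucleic acid sensors, neither tested gene passed. DDX58, which encodes the RNA sensor RIG-I, differed by 0.11 ± 0.112 (SE, n = 4; limma adjusted p = 0.702). IFI16, a DNA sensor, differed by 0.15 ± 0.141 (limma adjusted p = 0.648), and its FICZ arrays, at 10.07 to 10.53, overlapped the DMSO arrays, at 9.83 to 10.34. IFIH1, which encodes the RNA sensor MDA5, was too dim to be tested.

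Of the transcription factors, IRF7, the factor that amplifies type I interferon production, had the largest difference of all 36 genes. It measured 8.03, 8.56, 8.03 and 8.08 in DMSO and 7.52, 7.87, 7.85 and 7.66 in FICZ. All FICZ arrays lay below all DMSO arrays, and DMSO 2 was the highest. The difference was -0.45 ± 0.133 (SE, n = 4; 0.732-fold; unadjusted p = 0.00444; limma adjusted p = 0.141). Over the alternative settings it ran from -0.50 to -0.32 and the adjusted p from 0.118 to 0.293. In KynA it measured 8.17, 7.85, 8.15 and 8.29, which overlapped DMSO, with a difference of -0.060.

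The other factors gave smaller values of both signs. IRF9, the DNA-binding subunit of the ISRE complex, measured 8.29, 8.57, 8.21 and 8.16 in DMSO and 8.41, 8.78, 8.52 and 8.49 in FICZ. The ranges overlapped through DMSO 2, and the difference was 0.24 ± 0.137 (limma adjusted p = 0.433). STAT2, its partner, differed by 0.027 ± 0.101, IRF3, which starts interferon transcription after sensing, by -0.056 ± 0.109, and IRF2, a repressor of ISRE genes, by 0.11 ± 0.0984. IRF1 was too dim to be tested.

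Both receptor chains had negative differences and neither passed. IFNGR1, the ligand-binding chain of the interferon gamma receptor, measured 8.22, 8.18, 8.33 and 8.27 in DMSO and 8.24, 7.92, 8.19 and 7.86 in FICZ. The groups overlapped, with FICZ 2 and FICZ 4 lowest, and the difference was -0.20 ± 0.0948 (SE, n = 4; limma adjusted p = 0.349). Without FICZ 4 it was -0.13 (limma adjusted p = 0.626). IFNAR1, a chain of the type I interferon receptor, differed by -0.076 ± 0.128.

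Antiviral effectors and modifiers made up most of the set, with 31 genes, of which 25 had a row and 21 were tested. Positive differences were measured for 7 of these 21 (33.3%, against 41.4% of all tested genes), and 3 of the 21 had an unadjusted p under 0.05 (14.3%, against 14.5%). The smallest p of the set belonged to GBP1, a guanylate-binding GTPase induced chiefly by interferon gamma. GBP1 measured 8.18, 8.31, 8.12 and 8.31 in DMSO and 7.90, 7.82, 7.79 and 8.08 in FICZ, while KynA gave 8.02, 7.98, 8.19 and 8.14. FICZ and DMSO did not overlap, and KynA overlapped each of them. The FICZ difference was -0.33 ± 0.0879 (SE, n = 4; 0.794-fold; unadjusted p = 0.00197; limma adjusted p = 0.101), and over the alternative settings the adjusted p ran from 0.0760 to 0.233. GBP2, a relative, differed by 0.023 ± 0.105. Whether related genes share probes was not checked for any gene family, among them the guanylate-binding, OAS, MX, IFITM, IFI44 and SAMD9 families. Single members of these families are therefore uncertain.

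PARP9, an ADP-ribosyltransferase family protein that works with the ubiquitin ligase DTX3L to strengthen interferon signalling, had similar values under both ligands. It measured 8.15, 8.28, 8.17 and 8.32 in DMSO, 8.11, 8.05, 8.04 and 7.83 in FICZ, and 8.13, 8.07, 8.01 and 7.92 in KynA. All arrays of each ligand lay below all DMSO arrays, although KynA 1 and FICZ 1 lay only just under DMSO 1. The differences were -0.22 ± 0.0838 for FICZ (limma adjusted p = 0.241) and -0.20 ± 0.0838 for KynA (limma adjusted p = 1.00), and both were taken against the same DMSO arrays. Without FICZ 4 the FICZ difference was -0.17 (limma adjusted p = 0.477). DTX3L, which shares a promoter core with PARP9, differed by -0.085 ± 0.0977, and PARP14, a larger member of the family, by -0.15 ± 0.142.

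In FICZ, 3 of the 36 genes (GBP1, IRF7 and PARP9; 8.33%) lay wholly below DMSO, where 4.91% of all tested genes did. Of the 36, 0 lay wholly above, where 2.94% of all tested genes did.

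MX1, a GTPase that traps viral ribonucleoproteins, measured 9.04, 8.61, 8.86 and 8.83 in DMSO and 8.59, 8.70, 8.65 and 8.28 in FICZ. The groups overlapped because DMSO 2 lay within the FICZ range, and FICZ 4 was the lowest. The difference was -0.28 ± 0.106 (SE, n = 4; unadjusted p = 0.0199; limma adjusted p = 0.251), and without FICZ 4 it was -0.19 (limma adjusted p = 0.495).

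**Figure D2:**
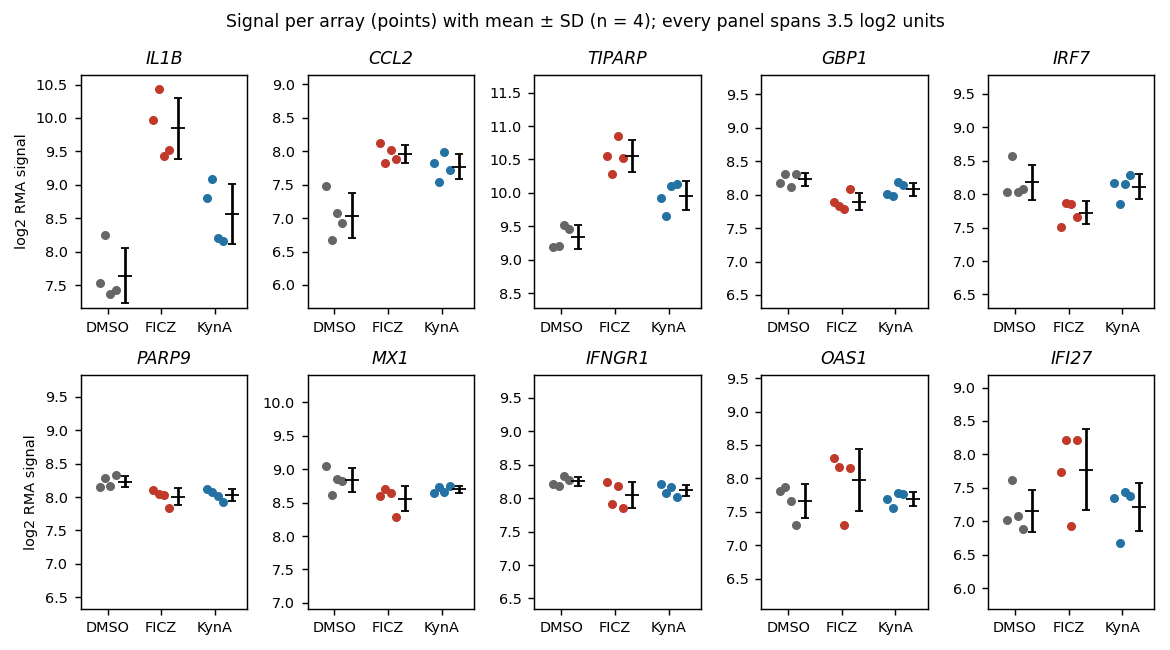
Log2 signal (vertical axis) of IL1B, CCL2, TIPARP and 7 interferon genes in each array by group, with the mean and SD of 4 arrays. Every panel spans 3.5 log2 units. The FICZ arrays of IL1B lie at 9.43 or above and its DMSO arrays at 8.24 or below, whereas the groups of MX1, IFNGR1, OAS1 and IFI27 overlap.

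The oligoadenylate synthetases, which make the second messenger that activates RNase L, had differences of both signs. OAS1 measured 7.81, 7.88, 7.66 and 7.30 in DMSO and 8.30, 8.17, 7.30 and 8.15 in FICZ. FICZ 3 lay level with the lowest DMSO array, while the other FICZ arrays lay above all DMSO arrays. The difference was 0.32 ± 0.186 (SE, n = 4; limma adjusted p = 0.454), and without FICZ 3 it was 0.55 (limma adjusted p = 0.0616), which did not pass. Over the alternative settings the adjusted p ran from 0.0616 to 0.719. OAS3 differed by -0.23 ± 0.125 (limma adjusted p = 0.423), OAS2 by -0.027 ± 0.138 and OASL, a relative that lacks the synthetase activity, by 0.068 ± 0.0836.

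The remaining tested effectors lay close to DMSO. The most positive were USP18, the protease that removes ISG15 and dampens receptor signalling, at 0.18 ± 0.0932 (limma adjusted p = 0.385), and IFI35, at 0.15 ± 0.0843 (limma adjusted p = 0.420). IFITM1, which blocks viral entry, differed by 0.12 ± 0.127. TRIM21, a cytosolic antibody receptor, differed by -0.15 ± 0.118, IFI44 by -0.15 ± 0.0813 and EIF2AK2, which encodes the RNA-activated kinase PKR, by -0.12 ± 0.0930. TRIM22, a ubiquitin ligase that restricts viruses, differed by -0.053 ± 0.111, SAMD9 by -0.057 ± 0.0834 and IFIT5, an RNA-binding antiviral protein, by 0.013 ± 0.0893. IFI6 and IFI44L, whose promoters hold 3 and 2 cores, differed by -0.031 ± 0.146 and -0.11 ± 0.127. IFI44L spread from 10.04 to 10.56 within DMSO and from 10.01 to 10.40 within FICZ, so its difference was small beside the spread within a group.

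No antigen presentation gene passed, and all 6 tested genes differed by less than 0.25, as did 85.7% of all tested genes, with a smallest adjusted p of 0.503. NLRC5, the transactivator of MHC class I genes, differed by 0.086 ± 0.0848, and its FICZ arrays at 7.74 to 7.89 overlapped DMSO at 7.66 to 7.87. TAP1 and TAP2, which pair to form the peptide transporter, differed by 0.012 ± 0.103 and -0.054 ± 0.105, and TAPBP, which holds MHC class I at the transporter, by -0.052 ± 0.0995. Of the immunoproteasome subunits, PSMB9 measured 9.55, 9.66, 9.24 and 9.55 in DMSO and 9.25, 9.41, 9.44 and 9.20 in FICZ. The groups overlapped, and the difference was -0.18 ± 0.117 (SE, n = 4; limma adjusted p = 0.503). PSMB8 differed by -0.12 ± 0.128, and PSMB10 was too dim to be tested.

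Dim or missing genes included several of the classical reporters of an interferon response. IFIT1, IFIT2, IFIT3, ISG20, RSAD2 and BST2 were not analysed here. ISG15, IFI27, MX2, XAF1, IFIH1, IRF1 and PSMB10 had a row but did not lie above the 25th percentile of an array (7.687 to 7.743) in 4 arrays, and were examined only in a fit with no level required. In that fit 0 of these 7 genes passed by limma, where 62 of all 13530 genes passed in FICZ against DMSO. IFI27 alone had an unadjusted p under 0.05 in FICZ against DMSO, as did 14.5% of all genes in the fit with the level required. IFI27, a mitochondrial protein often used as an interferon marker, measured 7.02, 7.62, 7.08 and 6.89 in DMSO and 7.73, 8.21, 6.93 and 8.21 in FICZ. FICZ 3 lay within the DMSO range and the other FICZ arrays above it. The difference was 0.62 ± 0.268 (SE, n = 4; unadjusted p = 0.0375; limma adjusted p = 0.341), with a 95% interval from 1.03-fold to 2.29-fold, so that a 2-fold difference lies inside it. Of the myeloid markers, ITGAM measured 7.31, 8.06, 6.91 and 7.38 in DMSO and 8.10, 8.53, 7.40 and 8.50 in FICZ, with FICZ 3 lowest of its group as for IFI27 (difference 0.72; limma adjusted p = 0.257). In KynA the orders differed, and KynA 2 was highest for ITGAM, at 8.29, and lowest for IFI27, at 6.67. The other tested myeloid markers differed by -0.019 (PTPRC), 0.074 (AIF1) and 0.23 (CSF1R) in FICZ against DMSO, and the dim FCER1G and TYROBP had means of 7.04 and 6.99 in DMSO and 7.10 and 6.69 in FICZ. Whether any such cells were present in these cultures of a cell line, or bear on the IFI27 values, was not tested. ISG15, the ubiquitin-like modifier, measured 7.43, 7.07, 7.03 and 7.24 in DMSO and 7.18, 6.78, 7.12 and 6.88 in FICZ. Its groups overlapped and the difference was -0.20 ± 0.117 (limma adjusted p = 0.474). The other 5 genes differed by -0.10 (IFIH1) to 0.10 (XAF1).

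Averaged over the 36 tested genes, the log2 signal was 8.72 ± 0.0288 in DMSO (SD, n = 4), 8.68 ± 0.0194 in FICZ and 8.70 ± 0.0503 in KynA. The ranges overlapped, at 8.69 to 8.76, 8.67 to 8.71 and 8.64 to 8.76. Replicates of the 36 genes were as tight as those of other genes, with a median SD within a group of 0.151 in both. KynA 4 was the lowest array of its group for 16 of the 36 genes and for 28.6% of all tested genes, and FICZ 4 for 10 of the 36 and for 35.8%.

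**Figure D3:**
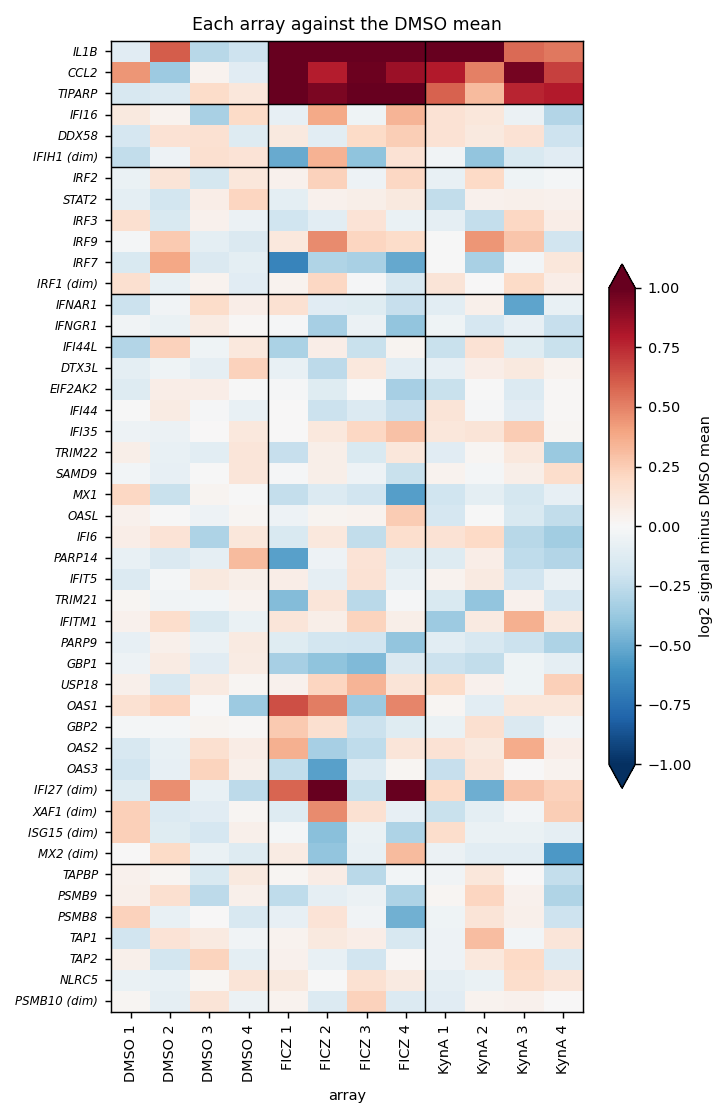
Each array minus the mean of the 4 DMSO arrays, as a log2 difference on a colour scale from -1 to 1, for the 43 genes with a row by role, with dim genes marked, and for IL1B, CCL2 and TIPARP. These 3 are above 0 in all 4 FICZ arrays, as are IRF9, USP18, IFI35 and IFITM1. GBP1, IRF7, PARP9, MX1, PSMB9, IFNGR1, EIF2AK2 and ISG15 are below 0 in all 4. Some of these arrays lie only just off 0. The share of all tested genes that lie on 1 side of 0 in all 4 FICZ arrays was not counted, so these lists are a description only. OAS1 and IFI27 are above 0 in 3 of the 4.

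Genes with and without an ISRE core were set side by side as a description. The 18 tested genes with a core in a promoter had a median FICZ difference of -0.114, and 3 of the 18 were positive, where all tested genes had a median of -0.031 and 41.4% were positive. The 9 tested genes with an entry and no core had a median of 0.105, and 6 of the 9 were positive. For KynA the medians were -0.036 and -0.0062, with 6 of the 18 and 4 of the 9 positive. Split by a DRE core instead, the FICZ medians were -0.076 for 9 genes with it and -0.070 for 18 without. Of these, 3 of the 9 and 6 of the 18 were positive. Tested genes with no promoter entry were left out of both splits. No median was taken over all genes with an ISRE core, so whether the core bears on the values was not tested. IL1B had an entry that held neither an ISRE nor a DRE core, but it held 1 GAS core.

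The second ligand, KynA, was compared with the same DMSO arrays. Of the 36 genes, 0 passed by limma, where 0.00925% of all tested genes passed, and 1 had an unadjusted p under 0.05 (PARP9, with lower values), against 3.39% of all tested genes in either direction and 1.52% lower. Positive differences were measured for 14 of the 36 and for 47.6% of all tested genes. The median difference was -0.019, against -0.0060 for all tested genes, and all 36 differed by less than 0.25, as did 95.7% of all tested genes. The 95% intervals ran from 0.729-fold to 1.38-fold. PARP9 was the single gene of the 36 whose KynA arrays all lay below DMSO, where 1.28% of all tested genes did so, and 0 of the 36 lay wholly above, where 1.13% did. After PARP9 the largest differences were 0.17 for OAS2, -0.17 for TRIM21 and -0.16 for IFNAR1, each with a limma adjusted p of 1.00. IL1B measured 8.80, 9.09, 8.21 and 8.17 in KynA and CCL2 7.83, 7.54, 7.99 and 7.72. Their differences of 0.92 ± 0.256 (limma adjusted p = 0.923) and 0.73 ± 0.147 (limma adjusted p = 0.284) did not pass. Their 95% intervals, from 1.30-fold to 2.77-fold and from 1.34-fold to 2.07-fold, do not show that KynA left them unchanged. All KynA arrays of CCL2 lay above all DMSO arrays, and without DMSO 1 CCL2 passed (difference 0.88; limma adjusted p = 0.0480). The AHR targets TIPARP (0.61; limma adjusted p = 0.469), CYP1B1 (0.71; limma adjusted p = 0.494) and AHRR (0.54; limma adjusted p = 0.854) did not pass with all arrays. All KynA arrays of TIPARP and CYP1B1 lay above all DMSO arrays, while those of AHRR overlapped DMSO.

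FICZ against KynA compared the ligands directly. The doses differed, so the values stand side by side and show no order of the ligands. Of the 36 genes, 0 passed by limma, where 0.00925% of all tested genes passed, and 2 had an unadjusted p under 0.05, 1 in each direction, against 8.34% of all tested genes and 5.22% lower. These were IRF7, at -0.39 ± 0.133 (SE, n = 4; limma adjusted p = 0.475), and OASL, at 0.21 ± 0.0836 (limma adjusted p = 0.536). The 36 genes split into 18 positive and 18 negative differences, where 42.7% of all tested genes were positive. In 0 of the 36 did the ligands' arrays not overlap, where 2.79% of all tested genes lay wholly below in FICZ and 1.4% wholly above. The intervals of all 36 ran from 0.627-fold to 1.60-fold. That these differences did not pass does not show that the ligands act alike.

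**Figure D4:**
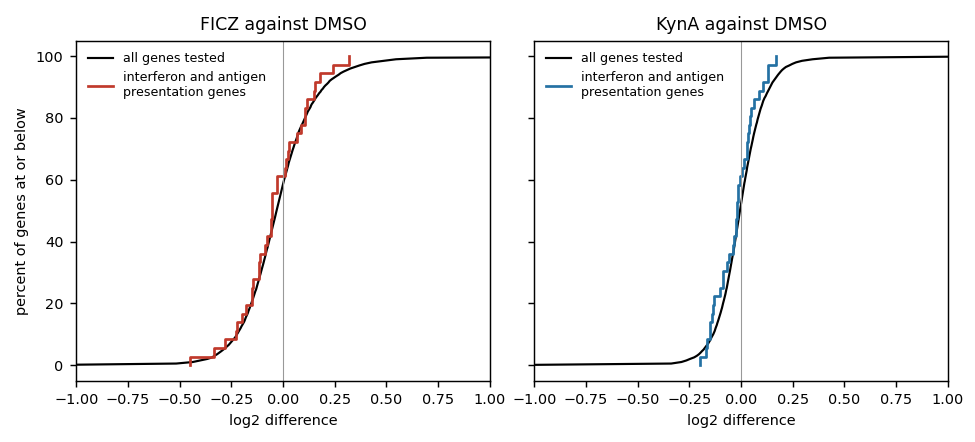
Cumulative percent of genes (vertical axis) by log2 difference from DMSO (horizontal axis), for the 36 tested interferon and antigen presentation genes and for all 10807 tested genes, under FICZ and under KynA. The 2 curves of each panel run close together, with medians of -0.053 and -0.031 under FICZ.

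Other genes of the pathway, on lists chosen by function, gave 0 that passed by limma in any of the 3 comparisons. Of the 94 tested, an unadjusted p under 0.05 was reached by 4 in FICZ against DMSO, 1 in KynA against DMSO and 6 in FICZ against KynA, where 14.5%, 3.39% and 8.34% of all tested genes reached it. Of 24 interferon ligands, 2 had a row and 1 was tested, IFNA14, at -0.14 ± 0.171 in FICZ (limma adjusted p = 0.746). Its row is uncertain because interferon alpha genes are nearly identical. Of the interferon-inducible chemokines, CCL5 differed by 0.14 ± 0.146, and CXCL9, CXCL10, CXCL11 and CXCL16 were not analysed here. Interferon release was therefore barely covered by the measured genes.

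Among 12 tested receptor and signalling genes, 6 (50%) were positive in FICZ, with a median of -0.030. Of all tested genes, 41.4% were positive, with a median of -0.031. SOCS3, the inhibitor of JAK kinases that cytokines induce, had the smallest p, with a difference of -0.25 ± 0.0954 (SE, n = 4; unadjusted p = 0.0213; limma adjusted p = 0.258). The kinase JAK2, at -0.12, the phosphatase PTPN1, at -0.12, and the factor STAT3, at 0.11, did not pass. Of 10 tested sensors and adaptors, 6 (60%) were positive, with a median of 0.049. IKBKE, a kinase that activates IRF3 and IRF7, differed by -0.28 ± 0.102 (unadjusted p = 0.0147; limma adjusted p = 0.223), and ZBP1, a sensor of Z-form nucleic acid, by 0.21 ± 0.122 (limma adjusted p = 0.441). The adaptors TRAF3, at 0.16, and TICAM1, at 0.11, did not pass.

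Further interferon-stimulated genes showed no common direction. Of 41 tested, 21 (51.2%) were positive in FICZ, with a median of 0.0084, against 41.4% and -0.031 for all tested genes. The smallest p values belonged to TRIM5, a restriction factor of retroviral capsids, at 0.30 ± 0.128 (limma adjusted p = 0.300), and IFITM2, a block to viral entry, at 0.28 ± 0.137 (limma adjusted p = 0.355). SAMD9L differed by -0.20 and ZC3HAV1, which targets viral RNA for decay, by -0.18. Of 22 further antigen presentation genes, 13 (59.1%) were positive, with a median of 0.032. HLA-DMB, which helps load MHC class II, differed by 0.22 ± 0.111 in FICZ (limma adjusted p = 0.366) and by 0.32 in KynA (unadjusted p = 0.0110; limma adjusted p = 1.00), while PSME3, a proteasome activator, differed by -0.17 ± 0.0790 in FICZ (limma adjusted p = 0.343). CIITA, the transactivator of MHC class II genes, differed by 0.17 and HLA-DMA, the partner of HLA-DMB, by 0.16. Of the 7 constitutive proteasome subunits, 1 (14.3%) was positive, and the largest difference was -0.15 ± 0.0762 for PSMB1 (limma adjusted p = 0.382). PSMB2, PSMB4 and PSMB6 differed by -0.069, -0.082 and -0.039.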

How the data were processed

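The authors deposited log2 signals, and the submitters' processing notes name RMA and oligo. No label or header gives their versions, the array annotation or the rule that kept dim transcripts out. There were 15759 transcript clusters, with row means from 6.496 upward. Symbols came from the platform annotation, which can be old: 13577 clusters had 1 symbol, 744 several and 1438 none. A gene with several clusters was represented by its brightest, and 0 of the 49 genes needed this.

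A gene was tested if it exceeded the 25th percentile of an array in at least 4 arrays. Group means were fitted to all 12 arrays in limma (9 residual and 5.19 prior degrees of freedom), two-sided, with Benjamini-Hochberg adjustment over 10807 genes, and genes under an adjusted p of 0.05 passed. The number of arrays limits the precision, and a log2 difference had a median SE of 0.106. The fit was tested on simulated data.

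The genes, lists and tests were chosen with earlier results of these data known. All genes of the set were described, with values per array for those of the smallest p. From each pathway list the 4 genes of smallest p in FICZ against DMSO were eligible to be named, in all comparisons. OAS1, IFI27 and ITGAM were singled out after their values were seen. The alternatives were array centring, cyclic loess, no filter, a 50th percentile filter, mean of clusters, trended robust variance, array weights, a fit to only the 8 arrays compared, leaving out each array, and a replicate block. Promoters came from RefSeq (GRCh38.p14). The tools were R 4.3.3, limma 3.58.1 with data.table, version 1.17.8, Python 3.11.15, pandas 2.3.3 and matplotlib 3.10.9.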

Additional observations from a re-analysis of the deposited data

Results flagged for a closer look

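In 13 of 261 groups of 4 arrays examined, and in 9 of 129 groups of the interferon and antigen presentation genes, 1 array lay far from the other 3 by Dixon's test at the 95% level. Chance gives about 5 percent of groups.

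Among the genes that bear on the results, IRF7 in DMSO 2 was 8.564, where the next array was 8.080. OAS1 in FICZ 3 was 7.296, where the next was 8.152. IFI27 in KynA 2 was 6.668, where the next was 7.352, and ISG15 in KynA 1 was 7.366, where the next was 7.129. Without DMSO 2, IRF7 remained short of the threshold in FICZ against DMSO, and so did OAS1 without FICZ 3.

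Of the other genes of the set, STAT2 was 8.952 in KynA 1, IFI6 was 8.250 in DMSO 3, and PARP14 was 8.877 in DMSO 4. DDX58 was 7.766 and MX2 was 6.575 in KynA 4.

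Beyond the set, AHRR was 8.356 in KynA 2, TICAM1, a sensor adaptor, was 7.892 in FICZ 3, PSMB6, a constitutive proteasome subunit, was 10.32 in FICZ 4, and TYROBP, a myeloid marker, was 7.112 in DMSO 3.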

How the results depend on the processing

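Of the 36 tested genes, 0 passed in either direction in any of the 3 comparisons under any of the 22 alternatives that tested them, of which 1 (the replicate number as a fixed block) was chosen after seeing the data. The filter at the 50th percentile tested 23 of the 36 and left out 13, among them GBP1, IRF7, PARP9, IFNGR1 and OAS1, and the other alternatives tested all 36. The smallest adjusted p was 0.0616 in FICZ against DMSO (OAS1 without FICZ 3), 0.213 in FICZ against KynA and 0.999 in KynA against DMSO. In FICZ against DMSO, 26 of the 36 genes kept their sign under every alternative that tested them, and no gene that turned had a difference over 0.115 in size.

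All tested genes that passed in FICZ against DMSO numbered 92, with 140 under trended robust variance, 43 with only the 8 arrays compared and 42 to 103 with 1 array left out. The lowest, 42, came without DMSO 1 or without FICZ 4, and 57, 44 and 49 passed without DMSO 2, DMSO 3 or DMSO 4 and 44 without FICZ 2. In KynA against DMSO 1 passed, with 2 under trended robust variance and 1 to 2 with 1 array left out (2 without DMSO 1 or KynA 2). In FICZ against KynA 1 passed, with 2 under no filter.

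With 1 array left out, the median difference of the 36 genes ran from -0.064 to -0.015 in FICZ against DMSO, -0.064 to 0.0036 in KynA against DMSO and -0.045 to 0.022 in FICZ against KynA. For KynA against DMSO the IRF7 difference ran from -0.12 to 0.069 with 1 array left out, turning to 0.069 without DMSO 2 and 0.027 without KynA 2. For FICZ against KynA the PARP9 difference ran from -0.062 to 0.034, turning to 0.034 without FICZ 4 and 0.0069 without KynA 1. In KynA against DMSO, CCL2 passed without DMSO 1 (difference 0.88; limma adjusted p = 0.0480) and AHRR without KynA 2 (0.72; limma adjusted p = 0.0470). The cause of these moves was not tested.

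Whether the replicate numbers pair the samples is not settled: 6 of 12 same-numbered pairs, not all, correlated above 0.1, and 7 of 12 arrays matched best with their own number, a hint from the data and not from the labels. With the number as a random replicate block 135 genes passed in FICZ against DMSO, and as a fixed block 124, with 6 in each other comparison. Under the fixed block, KynA against DMSO passed for IL1B (0.92; limma adjusted p = 0.00737), CCL2 (0.73; 0.0333), TIPARP (0.61; 0.0333) and CYP1B1 (0.71; 0.0134), and FICZ against KynA for IL1B (1.28; 0.000365) and TIPARP (0.60; 0.0487). Neither block let any of the 36 genes pass.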
